A study of Mus musculus with 3 samples.

Results

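The numbered zinc finger protein genes are the mouse genes whose symbol is Zfp followed by a number only. Zfp36, which promotes decay of AU-rich messenger RNAs, and Zfp42, the stem cell marker also called Rex1, carry such symbols and were left out. Of 32285 genes in the files, 365 symbols had this form and 363 remained without those 2. A gene was kept when its UMIs, summed over the called cells of the control library, came to at least 10 CPM (counts scaled to a common library total). This gave 165 genes, which are described here, and left 198 below the floor, 6 of them without a UMI in the control. A UMI (unique molecular identifier) marks 1 captured RNA molecule. Members were thus chosen by symbol and selected on control CPM alone, but the family was picked with earlier results of these data known, so the comparisons are given as descriptions.

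The cells were E14 mouse embryonic stem cells, an established line kept in medium with serum and LIF, the cytokine that sustains them, and were profiled by 10x Genomics 3′ single-cell RNA sequencing. The control had DMSO, the solvent, for 6 h. The other groups received 10 uM tubercidin, an adenosine analogue, for 3 h or for 6 h. Each group was 1 library, so no difference was tested and no p-value is given. Intervals are exact 95% intervals of counting error, and say nothing of how far another culture would differ.

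Most proteins of this family carry tandem C2H2 zinc fingers. In each finger a pair of cysteines and a pair of histidines hold a zinc ion, and a short helix reads DNA bases. Many also carry a KRAB box, which recruits Trim28 and, through it, the histone methyltransferase Setdb1 and other silencing factors. In embryonic stem cells such proteins are known for holding endogenous retroviruses and imprinted regions silent. KRAB zinc finger genes multiplied by local duplication and often lie in clusters of near copies. A minority of the genes with these symbols encode other zinc-binding proteins, active in splicing, ribosome assembly or ubiquitin transfer.

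The finger is the part the family shares, so the stretch coding for the first complete finger match is shown for members that the results turn on. Each line runs 5′ to 3′ on the coding strand of the GENCODE M21 transcript, with the 2 cysteine and 2 histidine codons in capitals.
Zfp990: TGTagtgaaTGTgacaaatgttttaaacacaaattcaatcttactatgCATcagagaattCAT
Zfp534: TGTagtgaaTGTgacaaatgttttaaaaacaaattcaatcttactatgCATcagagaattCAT
Zfp988: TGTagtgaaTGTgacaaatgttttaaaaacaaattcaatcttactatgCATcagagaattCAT
Zfp229: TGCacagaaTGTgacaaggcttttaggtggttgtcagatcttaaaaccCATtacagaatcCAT
Zfp799: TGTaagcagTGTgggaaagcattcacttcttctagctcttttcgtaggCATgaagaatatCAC
Zfp57: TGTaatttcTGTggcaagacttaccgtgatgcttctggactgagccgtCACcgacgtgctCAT
Zfp296: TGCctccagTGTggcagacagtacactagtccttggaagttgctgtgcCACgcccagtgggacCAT
Zfp367: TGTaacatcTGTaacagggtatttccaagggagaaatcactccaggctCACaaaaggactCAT
Zfp990, Zfp534 and Zfp988 lie in the same cluster on chromosome 4. The stretches of Zfp534 and Zfp988 were identical over 63 bases, and that of Zfp990 differed from each at 1 base. Those of Zfp229 and Zfp799, KRAB genes in separate clusters on chromosome 17, differed from Zfp990 at 24 and 33 of 63 bases. The stretch of Zfp57 differed from it at 36 bases, as did that of Zfp367.

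The control library held 2031 called cells, with 2365 at 3 h and 2926 at 6 h. The median cell had 48452, 11877 and 8004.5 UMIs, in that order, so a called cell of the control was much deeper than a treated one. Mitochondrial UMIs made up 2.95%, 3.43% and 2.87% of the total. Each pair of libraries shared 1 barcode among called cells. The 8 embryonic stem cell markers, Pou5f1, Sox2, Nanog, Esrrb, Klf4, Zfp42, Dppa5a and Tdgf1, were all detected and summed to 4069, 4838 and 3504 CPM. Summed markers of primitive endoderm stayed between 6.72 and 10.9 CPM and those of trophoblast between 2.07 and 2.88 CPM. Fibroblast markers summed to at most 0.891 CPM and 2-cell markers to at most 0.689 CPM. Of the 2-cell markers, Zscan4c, Zscan4f and Usp17la had no UMI in any library.

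Transcripts of the 165 genes took a smaller share of the RNA after tubercidin. Their summed level was 5883 CPM in the control library, 3742 CPM after 3 h and 4028 CPM after 6 h, which is 1.57-fold and 1.46-fold lower. The median member stood at 19.3, 11.6 and 12.6 CPM. Most members are rare transcripts. The middle range of control levels ran from 13.4 to 43.2 CPM, 9 members exceeded 100 CPM, and the highest 5 made up 16.8% of the sum. Counting error is nonetheless small, because the lowest member still had 1050 UMIs in the control, and no member had fewer than 95 UMIs at 3 h or 73 at 6 h.

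At 3 h the median member had a log2 ratio to the control of −0.79, computed on CPM + 1. The middle range of the members ran from −1.11 to −0.44. Over all 8158 genes at the same control floor the median was −0.31. At least 2-fold lower were 52 of the 165 members (31.5%), against 6.91% of all genes at the floor, and 0 members were at least 2-fold higher, against 0.441%. The ratio was below 0 in 153 members (92.7%), compared with 75.6% of all these genes. The counting interval lay below 0 in 148 members, above 0 in 10 and across 0 in 7. Intervals were not counted over all genes at the floor, here or in later comparisons, so these counts describe the members only.

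At 6 h the median member stood at −0.74, with a middle range of −1.08 to −0.32, while the median of all genes at the floor was −0.16. At least 2-fold lower were 51 members (30.9%), against a background of 5.75%, and 0 were at least 2-fold higher, against 1.21%. The ratio was below 0 in 144 members (87.3%) and in 63.8% of all genes. Both treated libraries are compared with the same control library. At both times 39 members were at least 2-fold lower, against 3.49% of all genes at the floor, and 64 were so at 3 h, at 6 h or at both, against 9.17%. The interval, again counted for members only, lay below 0 at both times in 136 members and above 0 at both times in 7.

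To set each gene beside others of similar abundance, the genes at the floor were put into 10 equal-number bins of control CPM. At 3 h, 136 members (82.4%) lay below the median of the non-members in their bin, at a median distance of −0.45. At 6 h, 137 members (83.0%) did so, at a median distance of −0.56. A scaling factor for a library largely cancels in this distance. In the plot of log2 ratio against control level the bin medians of other genes form a nearly flat line, and the members lie mainly under it at every level.

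**Figure D1:**
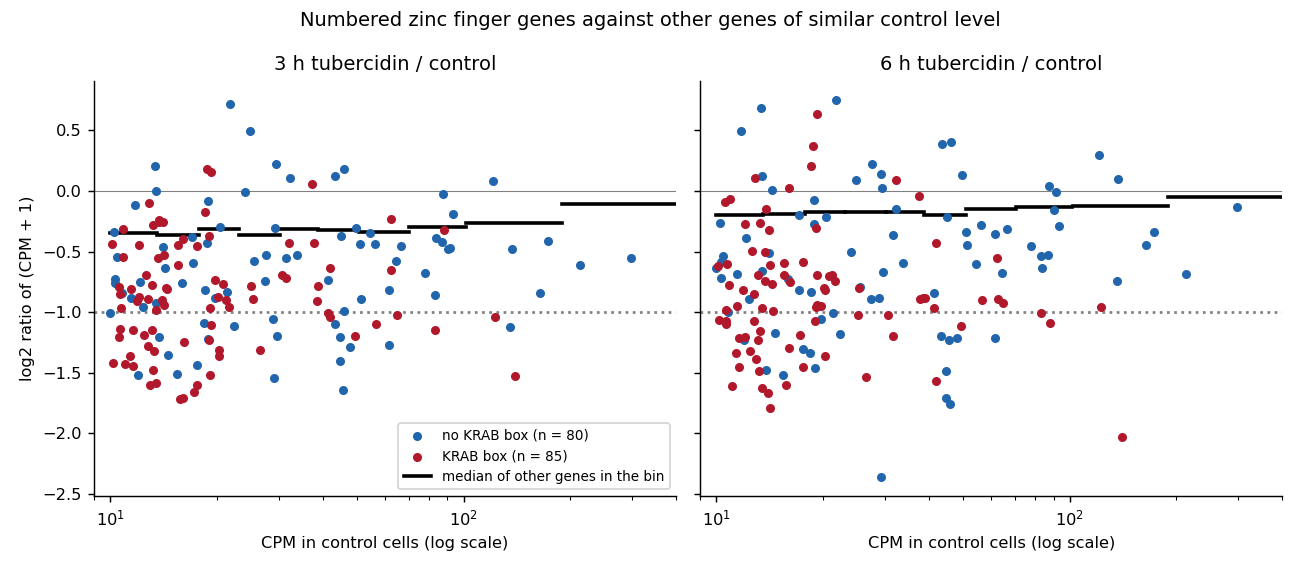
Log2 ratio of (CPM + 1) to the control (vertical axis) against control CPM (horizontal, log scale) for the 165 members at 3 h (left) and 6 h (right). Points are genes, red with and blue without a KRAB box; black bars are the median of non-member genes in each of 10 bins, and the dotted line marks 2-fold lower; 136 members at 3 h and 137 at 6 h lie below their bar.

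Between 3 h and 6 h the members moved little as a group. The median log2 ratio of 6 h to 3 h was 0.07, with 0.14 for all genes at the floor. No member (0 of 165) was at least 2-fold lower or higher, against 0.159% and 1.2% of all genes. The interval lay above 0 in 49 members, below 0 in 26 and across 0 in 90. This comparison is between treated libraries, and its sign for the family turned with the scaling: with median-of-ratios factors the median was −0.15 and with TMM factors −0.14. Relative to the bin of similar control level, 102 members (61.8%) lay below the median, at a median distance of −0.06.

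The numbered genes under the floor also had medians below 0. The 198 of them together had 787, 448 and 515 CPM, and their median log2 ratios were −0.62 and −0.51. Below 0 were 173 at 3 h and 161 at 6 h. Other genes under the floor were not summarised, so these values have no background of their own. Some went the other way, such as Zfp773 (1.19, 3.81 and 4.70 CPM) and Zfp750 (0.839, 1.34 and 3.97 CPM). Nearest above the floor were Zfp438 at 10.0, 4.48 and 6.08 CPM, Zfp120 at 10.1, 7.19 and 6.24 CPM, and Zfp810 at 10.2, 3.18 and 4.34 CPM. Nearest below it were Zfp944 at 9.92, 4.95 and 5.10 CPM, Zfp513 at 9.89, 4.22 and 2.67 CPM, and Zfp459 at 9.74, 5.75 and 8.47 CPM. All 6 were lower in both treated libraries, though the interval of Zfp459 at 6 h included 0 (−0.42 to 0.01). Over all genes at the floor 75.6% and 63.8% were below 0. Of the 2 genes left out by name, Zfp42 had 712, 437 and 455 CPM, and Zfp36 had 1.32, 2.61 and 2.80 CPM.

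The lower share was seen across the cells of a library and not in a few of them. Each cell was thinned to 4000 UMIs, which left out 0, 122 and 284 shallower cells. A control cell then held a mean of 23.5 member UMIs (23.3 to 23.7), with an SD over cells of 6.58. A cell at 3 h held 15.1 (14.9 to 15.2, SD 6.04) and a cell at 6 h 15.8 (15.6 to 15.9, SD 5.49). These intervals are binomial, pool the UMIs of all cells and leave out the spread between cells. Medians were 23, 14 and 15. The 25th percentile of control cells was 19 UMIs. At or below it were 27.6% of control cells, 83.5% of cells at 3 h and 77.9% at 6 h. Without thinning a cell held a mean of 304, 47.3 and 34.0 member UMIs, which is 6.42-fold and 8.94-fold lower and includes the difference in depth. As the plot of UMIs per cell shows, each library formed a single broad peak, with overlapping ranges.

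**Figure D2:**
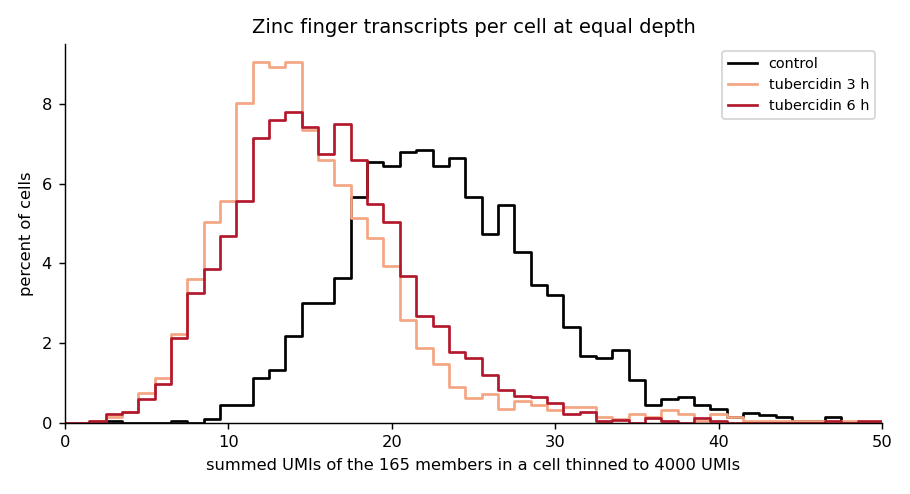
Percent of cells (vertical axis) by the summed UMIs of the 165 members in a cell thinned to 4000 UMIs (horizontal axis), for the control (black), 3 h (orange) and 6 h (red). The means are 23.5, 15.1 and 15.8 UMIs; cells are not replicates.

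Within each library the summed level depended little on the depth of the cell. In the control it was 5705 CPM in the RNA-poor and 5989 CPM in the RNA-rich cells on either side of the median depth. At 3 h these values were 3920 and 3654 CPM, and at 6 h 3909 and 4089 CPM. Cells with over 10% mitochondrial UMIs stood apart with more: 10725 CPM in 26 control cells, 7481 CPM in 124 cells at 3 h and 7975 CPM in 50 cells at 6 h. Their part in the result was measured by leaving them out: the median log2 ratio then was −0.81 at 3 h and −0.76 at 6 h. In barcodes without a cell, which hold free RNA, the members summed to 5013, 2653 and 2999 CPM.

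A KRAB box was found in the predicted protein of 85 members and not in 80, and the KRAB genes lay lower. Their median log2 ratio was −0.89 at 3 h and −0.90 at 6 h, against −0.60 and −0.54 without the box. At least 2-fold lower were 33 and 32 of the 85, and 19 and 19 of the 80. Over all genes at the floor the shares were 6.91% and 5.75%. Together the KRAB genes had 2107, 1161 and 1142 CPM, and the others 3776, 2582 and 2886 CPM. Relative to their bin of control level the KRAB genes lay at median distances of −0.55 and −0.75, and the others at −0.32 and −0.40. In cells thinned to equal depth the KRAB members gave a mean of 8.47, 4.70 and 4.44 UMIs.

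KRAB genes are rarer transcripts, so the classes were also compared at similar control level. Below the members' median control CPM the KRAB genes had medians of −0.90 and −0.94 (n = 54) and the rest −0.76 and −0.67 (n = 28). At or above it the values were −0.89 and −0.89 (n = 31) and −0.54 and −0.45 (n = 52). Among members with at least 7 finger matches the medians were −0.91 and −0.91 with the box (n = 76) and −0.73 and −0.59 without it (n = 40). In each of these comparisons the KRAB class was the lower. No test of the difference between the classes was possible with 1 library per group.

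**Figure D3:**
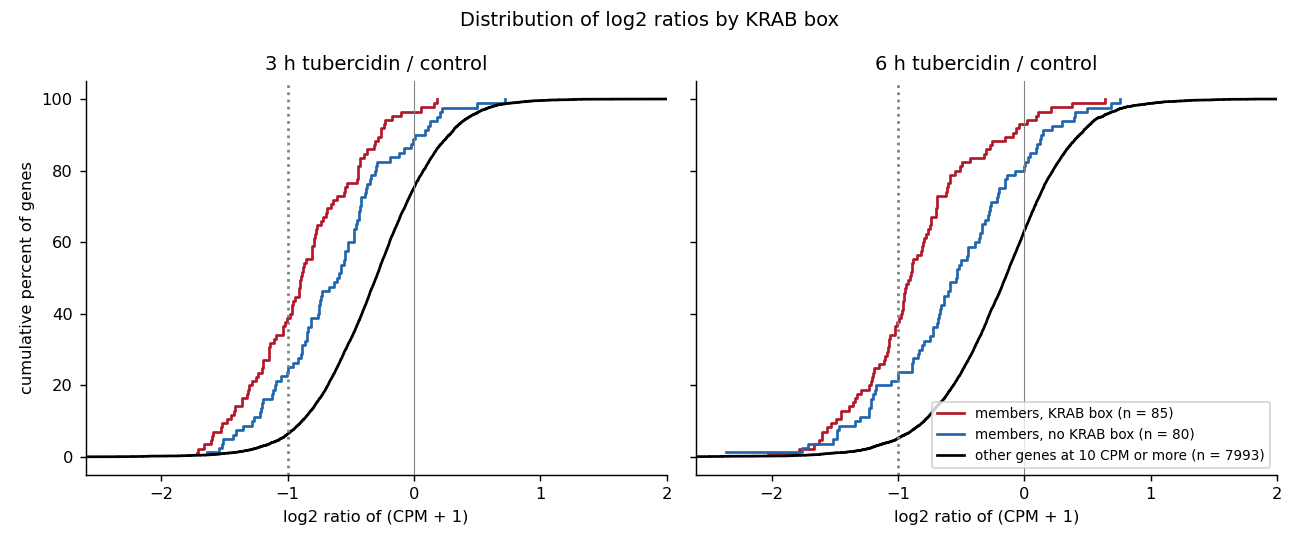
Cumulative percent of genes (vertical axis) by log2 ratio of (CPM + 1) to the control (horizontal axis) at 3 h (left) and 6 h (right). Red: 85 members with a KRAB box; blue: 80 without; black: 7993 other genes at 10 CPM or more; the red curve runs left of the blue one over most of its range, with medians of −0.89 and −0.60 at 3 h and −0.90 and −0.54 at 6 h.

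Members with few finger matches lay closer to the control. The median member had 10 finger matches. The 23 members with 0 to 2 matches had medians of −0.42 and −0.34, the 26 with 3 to 6 had −0.73 and −0.77, and the 40 with 7 to 10 had −0.77 and −0.77. The 42 with 11 to 14 had −0.91 and −0.95, while the 34 with 15 or more had −0.79 and −0.71. Relative to their bin of control level the 23 members with 0 to 2 matches lay at median distances of −0.12 and −0.20. The other classes lay between −0.41 and −0.58 at 3 h and between −0.52 and −0.77 at 6 h. At least 7 matches were found in 76 of the 85 KRAB members and in 40 of the 80 others. Finger number and KRAB box thus overlap. Across the 165 genes Spearman's rho between finger number and log2 ratio was −0.21 at 3 h and −0.18 at 6 h. These genes share their libraries, so rho is a description.

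Zinc finger genes with other names also had medians below 0, though some of their families lay close to genes of similar control level. There were 76 such genes at the floor with at least 5 finger matches, and their medians were −0.69 at 3 h and −0.55 at 6 h. All genes at the floor had −0.31 and −0.16. Of these, 26 had a KRAB box, with medians of −0.87 and −0.77, and 50 had none, with −0.54 and −0.42. The 21 Zbtb genes, which pair fingers with a BTB domain, had −0.70 and −0.26. The 10 Zscan and Zkscan genes, which carry a SCAN domain, had −0.40 and −0.32. The 15 Klf and Sp genes, 3-finger factors of GC-rich promoters, had −0.42 and −0.51. Relative to their bin of control level the 76 genes lay at median distances of −0.38 and −0.36. The Zbtb genes lay at −0.34 and −0.08, and the Zscan and Zkscan genes at −0.05 and −0.14. For Klf and Sp genes the distances were −0.08 and −0.38. These families were not kept apart from the 76 genes. For immediate-early genes, known for very short-lived messenger RNAs, only 5 of 12 reached the floor, with medians of −1.31 and −2.21, both below those of the KRAB members.

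The members lowest at 3 h were mostly KRAB genes of low abundance. Zfp7 stood at 15.7 CPM in the control and at 4.08 and 4.50 CPM in the 3 h and 6 h libraries, and its log2 ratio at 3 h was −1.72 (−2.22 to −1.68). Its interval is for the ratio without the added 1 CPM, so for rare genes the ratio lies near its upper end. Zfp74 had 16.05, 4.22 and 5.96 CPM. Both encode KRAB proteins with 16 and 18 finger matches. Zfp707 (17.3, 4.78 and 7.01 CPM), Zfp84 (17.6, 5.12 and 5.79 CPM), Zfp941 (13.0, 3.61 and 4.34 CPM) and Zfp599 (13.5, 3.81 and 3.69 CPM) gave the same picture, low at both times. Without a KRAB box were Zfp318, at 45.6, 13.95 and 18.9 CPM, and Zfp296.

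Zfp296, expressed in pluripotent cells and germ cells and known as a Klf4 partner, was the lowest member at 6 h. Its level was 29.2, 9.33 and 4.86 CPM in the control, 3 h and 6 h libraries. The log2 ratios were −1.55 (−1.83 to −1.47) and −2.36 (−2.86 to −2.32), and from 3 h to 6 h it was lower by a further step, at −0.82. Zfp990, a KRAB gene and the only one among the 5 most abundant members, had 140, 48.0 and 33.5 CPM, with log2 ratios of −1.53 and −2.03. Zfp534 (14.2, 6.92 and 3.40 CPM) and Zfp988 (14, 7.03 and 3.73 CPM) lie in the same cluster as Zfp990. Each of these 4 was lower at 6 h than at 3 h. Zfp553 had 45.8, 22.5 and 12.8 CPM and Zfp90 11.05, 3.48 and 2.96 CPM, and the remaining 2 of the lowest 8 at 6 h were Zfp281 and Zfp599.

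A small set of members was higher in the treated libraries as a share of RNA. Zfp367 was the highest at both times, with 21.9, 36.6 and 37.5 CPM. Its log2 ratios were 0.72 (0.64 to 0.85) and 0.75 (0.67 to 0.89). Zfp770 had 13.4, 15.6 and 22.1 CPM, and its log2 ratios were 0.21 and 0.68. The KRAB genes Zfp229 (19.3, 21.5 and 30.6 CPM) and Zfp799 (18.8, 21.5 and 24.7 CPM) were also above the control at both times. So were Zfp423 (43.4, 47.3 and 57.2 CPM), Zfp593 (46.0, 52.3 and 61.2 CPM) and Zfp428 (121, 128 and 149 CPM). These 7 are the members whose interval lay above 0 at both times. Zfp444 was highest at 3 h, with 24.8, 35.4 and 26.5 CPM, and Zfp180 at 6 h, with 11.8, 10.8 and 17.0 CPM. Counted per cell without scaling for depth, these 9 and all the other members were lower in both treated libraries, as were 8156 and 8158 of the 8158 genes at the floor.

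**Figure D4:**
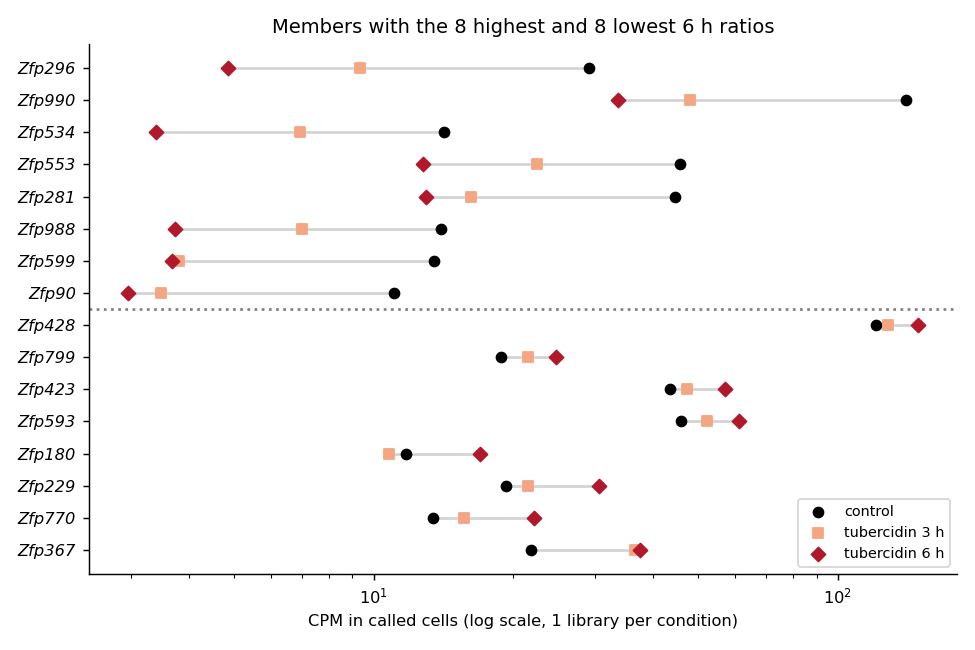
CPM in called cells (horizontal axis, log scale) of the members with the 8 lowest (above the dotted line) and 8 highest (below it) log2 ratios at 6 h, 1 point per library. Circles: control; squares: 3 h; diamonds: 6 h. Zfp296 goes from 29.2 to 4.86 CPM and Zfp367 from 21.9 to 37.5 CPM.

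The promoters of Zfp296 and Zfp367 are shown as examples of how far members differ in CG content before the start site, and no relation to the response is read from these 2 genes. Each is the 250 bases before the RefSeq start (GRCm38.p6), 5′ to 3′ on the gene's strand, with every CG in capitals. That of Zfp296 is chr7:19577037-19577286, plus strand, with 14 CG. That of Zfp367 is chr13:64153200-64153449, minus strand, with 29 CG.
Zfp296: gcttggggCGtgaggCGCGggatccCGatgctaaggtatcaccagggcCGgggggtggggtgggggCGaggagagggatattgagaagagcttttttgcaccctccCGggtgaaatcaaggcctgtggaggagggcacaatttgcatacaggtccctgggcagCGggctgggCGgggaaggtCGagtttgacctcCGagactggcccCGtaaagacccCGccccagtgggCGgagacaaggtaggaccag
Zfp367: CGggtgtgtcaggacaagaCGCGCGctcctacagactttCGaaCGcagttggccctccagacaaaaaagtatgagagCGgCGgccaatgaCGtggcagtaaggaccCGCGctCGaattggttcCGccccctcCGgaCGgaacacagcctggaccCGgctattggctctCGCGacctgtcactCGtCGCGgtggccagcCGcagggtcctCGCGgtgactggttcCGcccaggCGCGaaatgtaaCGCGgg
RefSeq promoters of 300 bases were found for 134 of the 165 members. They had a median of 14 CG, with 10 in the KRAB class and 19 in the rest, against 23 in 6398 other genes at the floor and 7 in all 27025 promoters of the table. The letters CCAAT, on either strand, were present in 54.5% of members (66.7% of the KRAB class), in 40.4% of the other genes and in 37.9% of all promoters. GGGCGG was present in 54.5% of members, 69.1% of the other genes and 35.9% of all promoters, and TATAAA in 8.96%, 5.97% and 14.2%.

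The members also differ from other genes in transcript structure. Their median exon number was 5, against 10 in other genes at the floor, and their median GC content was 44.6%, against 49.6%. KRAB members had 40.3% GC and the rest 49.6%. Their 3′ untranslated region had a median of 1226 bases, against 987, with 1.81 ATTTA pentamers per kb against 1.38. Across members rho between log2 ratio and pentamer density was −0.22 at 3 h and −0.21 at 6 h, and across other genes −0.24 and −0.22. For GC content rho was 0.22 and 0.30 in members and 0.27 and 0.28 in other genes. Other features had relations of opposite sign at 3 h: rho for exon number was 0.16 in members and −0.08 in other genes, and for the length of the 3′ untranslated region 0.06 and −0.18. The part of base composition in the family's lower level was not tested.

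By position the members fall partly into clusters, defined as numbered zinc finger genes with gaps of at most 500 kb. There were 12 such clusters with at least 3 members each, which held 67 members, and 98 members lay outside them. Chromosome 7 carried 37 members and chromosome 17 carried 20. The 98 members outside clusters had medians of −0.75 and −0.69 in the 2 comparisons with the control, so the lower level was not limited to clustered genes.

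In the cluster near the end of chromosome 4 (GRCm38, 145510759 to 147848366) every member was lower at 6 h than at 3 h. It holds 18 numbered genes, of which 11 are members, all with a KRAB box. The rest lie below the control floor and are not part of the values given here. The summed level of the 11 members was 416, 216 and 151 CPM. The median log2 ratio was −0.90 at 3 h and −1.45 at 6 h. From 3 h to 6 h all 11 were lower, with a median of −0.46 and a range of −0.85 to −0.14, and the interval lay below 0 in 8 of them. Below 0 in this comparison were 33.0% of all genes at the floor and 34.7% of the other genes of chromosome 4. Of the 26 members in the whole family whose interval lay below 0 in this comparison, those 8 are in this cluster. By contrast the 74 KRAB members elsewhere had medians of −0.89, −0.83 and, for 6 h against 3 h, 0.09. In a cluster on chromosome 18, all 3 members (Zfp397, Zfp35 and Zfp24, without a KRAB box) were also below 0 for 6 h against 3 h. Their median was −0.10. The 516 other genes of chromosome 4 at the floor had medians of −0.33, −0.17 and 0.12, but the 2 of them inside the cluster had −0.95, −1.31 and −0.36, like the members. All 11 stayed below 0 for 6 h against 3 h with median-of-ratios factors, TMM factors, UMIs per cell and the mean of per-cell CPM, with medians between −0.76 and −0.43. In that order, these alternatives moved the median of all genes at the floor by −0.22, −0.21, −0.50 and −0.05 in this comparison. A shift downward could hardly turn these signs, so their persistence lends no support.

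Levels of the members in the chromosome 4 cluster differed widely while the direction was shared. Zfp979 had 62.5, 53.2 and 33.2 CPM, Zfp985 had 41.8, 19.8 and 13.5 CPM, and Zfp982 had 37.7, 27.8 and 19.9 CPM. Zfp980 (30.7, 18.6 and 14.5 CPM), Zfp984 (26.5, 10.1 and 8.51 CPM) and Zfp992 (25.1, 14.1 and 11.8 CPM) were in the middle. Zfp600 (11.4, 6.09 and 5.43 CPM) and Zfp981 (11.6, 4.68 and 3.61 CPM) were the rarest. In 9 of the 11, over 10% of the last 500 bases of the transcript also occur in another gene, and up to 100% in Zfp600, so reads may be split between copies or lost, and values of single genes are uncertain. The other 2, Zfp979 and Zfp992, share none of theirs, though both overlap another annotated gene, and both were lower at 6 h than at 3 h, at −0.67 and −0.24.

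The larger clusters on chromosomes 7 and 17 had medians for 6 h against 3 h above 0, where the scaling turns the sign for the family. On chromosome 7 the 7 members between 29768552 and 30169750 (Zfp84, Zfp30, Zfp74, Zfp568, Zfp566, Zfp260 and Zfp146) had median log2 ratios of −1.04 and −0.89 to the control, and of 0.15 for 6 h against 3 h. The 5 KRAB members at 42473386 to 43618285 on the same chromosome had −0.91, −0.89 and 0.03, although 4 of them also share 3′ ends. On chromosome 17 the 11 KRAB members at 21008903 to 23599487 had −0.88, −0.74 and 0.20. That cluster was mixed: Zfp229 stood at 0.15 and 0.64, next to Zfp820 at −1.19 and −1.32. The 6 members at 32765496 to 33631779 had −0.35 and −0.27, with Zfp799 at one end and Zfp472 (11.6, 3.61 and 4.42 CPM) at the other.

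**Figure D5:**
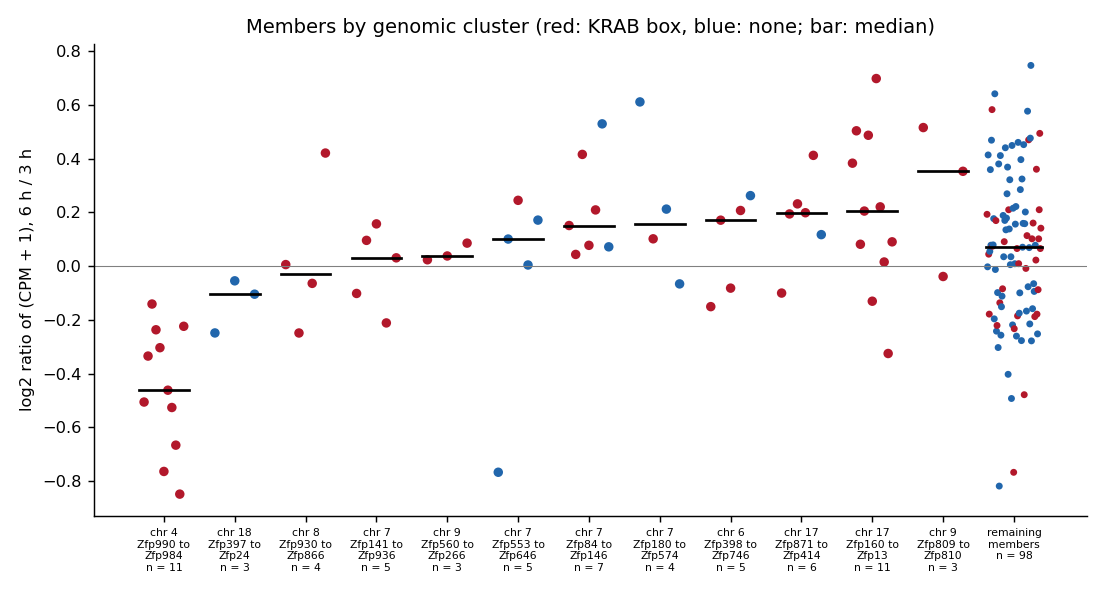
Log2 ratio of (CPM + 1) of 6 h to 3 h (vertical axis) for members in 12 genomic clusters and for the 98 remaining members; red points have a KRAB box, blue points do not, and bars are medians. The 11 members of the chromosome 4 cluster (left) all lie below 0, with a median of −0.46.

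Among KRAB proteins with a described target, levels diverged. Of 6 such genes listed, 5 were members. Zfp568, which represses a placental Igf2 transcript, had 123, 59.3 and 62.6 CPM, log2 ratios of −1.04 and −0.96. Zfp57, which guards imprinted regions through methylated DNA, had 87.8, 70.1 and 40.8 CPM, log2 ratios of −0.32 (−0.39 to −0.26) and −1.09 (−1.20 to −1.01). It thus stood among the members with the lowest ratio of 6 h to 3 h, at −0.77, without being in the chromosome 4 cluster. Zfp445, the other imprinting guardian, had 41.9, 26.6 and 30.9 CPM. Zfp809, which silences murine leukaemia retroviruses, had 32.2, 23.7 and 34.2 CPM, and its interval at 6 h included 0 (−0.02 to 0.20). Zfp932, a repressor of endogenous retroviruses, had 15.5, 9.84 and 9.20 CPM, and shares 74.5% of its 3′ end with another gene. The medians of the 5 were −0.61 and −0.70, with 1 at least 2-fold lower at each time. Among all members 31.5% and 30.9% were so, and among all genes at the floor 6.91% and 5.75%. Zfp708 was not a member, with 0.00953 CPM in the control.

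The KRAB corepressor Trim28 was higher as a share of RNA, while several of its partners were as low as the median member at 3 h. Trim28 itself, the protein bound by the KRAB box, had 459, 642 and 620 CPM, log2 ratios of 0.48 and 0.43, or of −1.54 and −2.17 in UMIs per cell without scaling. Setdb1, which places the repressive H3K9 methylation, had 89.8, 51.3 and 77.5 CPM, or −0.80 and −0.21. The 20 partner genes found had medians of −0.29 and −0.08, and 16 and 12 of them were below 0. Over all genes at the floor 75.6% and 63.8% were below 0. Relative to their bin of control level the 20 lay at median distances of −0.01 and 0.004, with 11 and 10 below the bin median. As a group they thus stood near other genes of similar control level. The extremes at 3 h were Morc3 (131, 57.3 and 80.7 CPM) and Atrx (335, 184 and 270 CPM) at the lower end, with Trim28 and Daxx (49.5, 59.8 and 48.3 CPM) at the upper. At 6 h the upper extremes were Uhrf1 (122, 140 and 177 CPM) and Trim28, and the lower ones Morc3 and Mphosph8 (163, 140 and 108 CPM).

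Members with a role in stem cells or chromatin included genes far below the control and a few above it. Of 23 genes listed, 17 were members, with medians of −0.67 and −0.54. Of the 17, 5 and 4 were at least 2-fold lower, against 31.5% and 30.9% of all members. Over all genes at the floor the shares were 6.91% and 5.75%. Zfp281, a DNA-binding partner of Nanog, had 44.7, 16.2 and 13.0 CPM, log2 ratios of −1.41 (−1.60 to −1.33) and −1.71 (−1.95 to −1.62). Its close relative Zfp148, which binds similar GC-rich sites, had 91.6, 65.7 and 91.2 CPM, and at 6 h its interval included 0 (−0.07 to 0.06). These related factors thus stood far apart at 6 h. Zfp131, a BTB-domain factor, had 61.4, 24.9 and 25.9 CPM, and Zfp217, a corepressor subunit, had 14.6, 5.12 and 5.92 CPM. Zfp292 was at 136, 61.7 and 80.6 CPM, at least 2-fold lower at 3 h but not at 6 h. Zfp462, a repressor of differentiation genes, had 83.0, 45.3 and 56.8 CPM.

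Zfp706, the second most abundant member, had 213, 139 and 132 CPM, but shares 49.4% of its 3′ end with another gene. Zfp644, a partner of the G9a methyltransferase, had 87.4, 85.8 and 90.2 CPM, and its intervals included 0 at both times. Zfp532 (77.9, 48.5 and 56.5 CPM) and Zfp592 (18.8, 13.7 and 15.4 CPM) encode related proteins of a common chromatin complex, and both were lower at both times. Zfp609, a cofactor of cohesin loading, had 61.6, 34.6 and 48.0 CPM. Zfp827, a recruiter of the NuRD complex, had 33.8, 23.1 and 22.1 CPM. Zfp143, a promoter-binding factor, had 20.4, 16.5 and 17.5 CPM, and Zfp384 had 10.3, 5.69 and 6.52 CPM. Zfp219 was above the control at 3 h, at 34.5 against 29.5 CPM, and its interval at 6 h included 0 (−0.09 to 0.14), while Zfp423 was above it at both times.

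Members that act on RNA, ribosomes or ubiquitin include 3 of the 5 most abundant, and their medians were the nearest to 0 among the 3 role lists. All 12 genes listed were members. Their medians were −0.44 and −0.35, and 1 of the 12 was at least 2-fold lower at each time, near the share over all genes (6.91% and 5.75%). That gene was Zfp830, a splicing-associated factor, with 43.2, 19.6 and 18.3 CPM. Zfp106, an RNA-binding protein and the most abundant member, had 298, 203 and 271 CPM. Zfp207, a spindle and splicing protein, had 173, 129 and 137 CPM. Zfp638, which binds RNA and unintegrated retroviral DNA, had 165, 91.2 and 120 CPM, and shares 40.2% of its 3′ end. All 3 were lower than the control in both treated libraries.

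In the same list, Zfp622 and Zfp593 act in assembly of the large ribosomal subunit. Zfp622 had 93.4, 81.6 and 76.1 CPM, whereas Zfp593, given above, was higher at both times. Zfp598, the ubiquitin ligase of collided ribosomes, had 32.3, 34.9 and 29.0 CPM. The ubiquitin ligase Zfp91 had 83.7, 63.8 and 53.4 CPM, and the SUMO ligase Zfp451 had 66.4, 48.2 and 53.2 CPM. Zfp277, a partner of a ribosomal protein, had 64.3, 42.6 and 39.7 CPM. Zfp326, of a complex linking polymerase and splicing, had 54.3, 42.5 and 35.4 CPM, and Zfp346, which binds double-stranded RNA, had 31.6, 21.2 and 24.3 CPM. Apart from Zfp593 and, at 3 h, Zfp598, the list was lower at both times. Thus 10 and 11 of the 12 were below 0, against 75.6% and 63.8% of all genes at the floor. For Zfp622 the log2 ratio at 3 h was only −0.19. Median-of-ratios factors moved the median of all genes at 3 h by 0.23, so its sign there depends on the scaling.

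From 3 h to 6 h the members at the ends of the distribution moved in opposite directions. The lowest ratios belonged to Zfp534 (−0.85), Zfp296 (−0.82), Zfp57 and Zfp553, the last 2 both at −0.77. The highest belonged to Zfp787 at 0.75 (27.6, 18.9 and 32.3 CPM), Zfp995 at 0.70 (10.6, 5.69 and 9.85 CPM), Zfp236 at 0.64 (14.3, 8.87 and 14.4 CPM) and Zfp180 at 0.61. Zfp995 shares 27.0% of its 3′ end with another gene. Zfp787, Zfp995 and Zfp236 were lower at 3 h and close to or above the control at 6 h, so their low value was seen in 1 library only.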

How the data were processed

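Single-cell RNA of 3 libraries, 1 per condition, was analysed. The authors deposited unnormalized UMI counts for every gene in every barcode; Cell Ranger 7.1.0 and mm10 are named in the submitters' processing notes; whether intronic reads were counted is not given in the sources used here. The files hold 1817054, 617590 and 802370 barcodes for control, 3 h and 6 h, unfiltered. A barcode was called a cell when it reached 1/10 of the 99th percentile of UMIs among the top 3000 barcodes, with 500 genes or more and no more than 20% mitochondrial UMIs. The minimum was 11034, 2961 and 2107 UMIs, and 104892739, 29892000 and 24681924 UMIs remained. Doublets were kept, and cells were not clustered.

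Counts were summed over cells, scaled to CPM and set against each other as log2 ratios after adding 1 CPM. Intervals of log2 ratios are exact conditional binomial intervals of the ratio without the pseudocount, and cover counting error only. Genes at 2-fold or more were counted; with 1 library per group there was no test. The replicate spread, which may be technical or biological, is unknown.

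Gene models, positions and transcripts came from GENCODE M21 (GRCm38, the build that mm10 names), and promoters from RefSeq. Finger matches were cysteine and histidine spacings in translated coding sequences. A KRAB box was a window of 32 residues scoring at least 20 bits against 119 strictly matched windows; the members nearest that limit scored 3.28 (Zfp746) and 30.6 (Zfp212) bits. Sharing of 3′ ends was the percent of 31-mers in the last 500 bases found in another gene. Of the members, 30 share over 10% and 81 overlap another gene. Without knowledge of strand handling, reads of overlapping genes are uncertain.

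Members and lists were chosen with earlier results of these data known. Named genes were the 8 lowest and highest members in each comparison with the control, the 4 lowest and highest at 6 h against 3 h, the 5 most abundant, the 3 nearest to the floor on either side, all members in 3 role lists, and the extremes of the partner list; members of the clusters on chromosomes 4, 7 and 17 outside this rule were named after their values were seen. Fam208a was not found among the partner genes by that symbol. Alternatives covered the cell minimum, the mitochondrial limit, cells of high UMIs, scaling, pseudocount, free RNA, the control floor and the bins. Leaving out members that share 3′ ends or overlap genes, and adding symbols with a letter suffix, were chosen after seeing the data. The scripts were tested on simulated data. TMM factors came from edgeR 4.0.16 in R 4.3.3; the rest ran in Python 3.11.15 with scipy 1.17.1, pandas 2.3.3, numpy 2.4.6 and matplotlib 3.10.9.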

Additional observations from a re-analysis of the deposited data

Results flagged for a closer look

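For 6 members the counting intervals lay on opposite sides of 0 in the 2 comparisons with the control, and the difference between the times was not tested because each is 1 library. The log2 ratio of 6 h to 3 h was 0.75 for Zfp787 (−0.53 at 3 h, 0.22 at 6 h), 0.58 for Zfp704 (−0.48, 0.10) and 0.45 for Zfp512 (−0.31, 0.14). It was 0.44 for Zfp407 (−0.31, 0.13) and 0.38 for Zfp160 (−0.17, 0.21). In the other direction it was −0.26 for Zfp598 (0.11, −0.15). With median-of-ratios or TMM factors the opposite signs held for 5 of the 6, while Zfp160 stood at 0.06 or 0.01 at 3 h. Counted per cell without scaling, all 6 were lower than the control at both times.

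Some numbered genes were below the control floor, and so no members, but reached 10 CPM in a treated library. Zfp365 had 13.7 CPM at 3 h and 25.4 CPM at 6 h, against 8.77 CPM in the control, and its log2 ratio at 6 h was 1.43. At 6 h Zfp202 had 11.8 CPM (control 7.94), Zfp867 11.5 CPM (control 9.24) and Zfp426 11.4 CPM (control 9.11). These are shares of the RNA: counted per cell without scaling, all 4 genes were lower than the control at both times.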

How the results depend on the processing

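In all 18 alternatives run most members lay below genes of similar control level, with 80.7% to 87.1% below their bin median at 3 h and 80.5% to 87.1% at 6 h. The median distance was smallest with a floor of 50 CPM, at −0.24 and −0.37. A factor per library largely cancels in this position, so alternatives that only rescale a library could hardly change it and lend no support. With median-of-ratios and TMM factors 136 and 137 members lay below, as in the main run. Counts are given as percent of members, and thinned values per 4000 UMIs, because alternatives differ in member number or depth; this form was chosen after the values were seen. Scaling moved the other values. Median-of-ratios factors moved the median of all genes at 3 h by 0.23, and gave a member median of −0.56 at 3 h, 18.8% of members at least 2-fold lower at 3 h (3.08% of all genes), and −0.15 for 6 h against 3 h. TMM factors gave −0.61, 21.8% (3.62%) and −0.14. UMIs per cell gave medians of −2.46, −2.85 and −0.35, with 100% of members, but also 99.5% and 99.8% of all genes, 2-fold lower. The mean of per-cell CPM gave −0.012 for 6 h against 3 h. With a floor of 50 CPM (31 members) the medians were −0.55 and −0.53. At that floor 22.6% and 12.9% of members were 2-fold lower, against 4.89% and 3.8% of all genes. With a mean floor of 10 CPM over the 3 libraries the median at 3 h was −0.60. There 21.2% of members were 2-fold lower at 6 h, against 4.41% of all genes. Per 4000 UMIs, cells at 3 h held 15.7 member UMIs when thinned to 3000 UMIs, 15.3 with another seed, 14.6 with at most 10% mitochondrial UMIs and 14.3 with double the minimum; the control held 23.3 and 23.2 in the last 2. At 6 h against 3 h, 2, 2 and 3 members were 2-fold lower with median-of-ratios factors, TMM factors and UMIs per cell (1.21%, 1.21% and 1.82% of members, against 0.588%, 0.576% and 2.08% of all genes).

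For 59 named members and 11 alternatives there were 1947 values. Of these, 1577 moved by no more than the distance from the middle of their counting interval to its end. The sign changed in 121, 58 of these with UMIs per cell and 43 with the other 2 sets of factors. Of the 121, 80 concerned 6 h against 3 h. Of the 407 alternative values of results past 2-fold, 0 changed sign. All of these results lay below the control, and no alternative raised the median of all genes by more than 0.23. A change of sign was therefore hardly possible, and the 0 lends no support. No paired analysis was possible because each condition is 1 library.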
